A study of Mus musculus with 2 samples.

Results

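Genes of the spliceosome and of splicing factors were followed in sorted Langerhans cells, the dendritic-type immune cells that live in the epidermis. The members were the genes whose symbol begins with Srsf, Sf3a, Sf3b, Snrp, Snrnp, Prpf or Hnrnp (for Srsf, Sf3 and Prpf followed by a number), together with Ppih, Ppil1, U2af1 and U2af2. By this rule 68 of the 19937 genes named by probe sets with 1 gene symbol were members, and 67 of them reached the intensity floor of 48.7 on at least 1 array, as did 12843 genes in all. The member below the floor was Srsf12, at 34.5 and 46.4. Hnrnpa1, Hnrnpa3, Hnrnph3, Snrpf and Snrpn were read only by probe sets that carry several gene symbols and are not described.

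Each of 2 genotypes was measured on 1 microarray (n = 1), so no difference below has a replicate error or a test, and none can be told from a difference between 2 animals, sorts or amplifications. The Il34+/LacZ mice carried 1 LacZ allele of Il34, the gene of a CSF1 receptor ligand that keratinocytes make, and the Il34LacZ/LacZ mice carried LacZ alleles on both chromosomes. The mice of both genotypes were 8 to 12 weeks old, had received ultraviolet light for 30 min and gave Langerin+ Epcam+ cells 21 days later. Wild-type or unirradiated mice were not analysed here, and the labels do not say whether an array holds RNA of 1 animal or of a pool. The 1 measure of error in the files is the disagreement between probe sets of the same gene, with an SD of 0.63 on the log2 scale (1.55-fold) over 614 genes and of 0.62 over the 12 members that have several. It was taken on differences as deposited and holds no variation between animals, sorts or arrays.

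Splicing removes introns from precursor messenger RNA. The U1 particle marks the start of an intron, U2AF and the U2 particle mark its end and branch point, and the U4/U6.U5 tri-snRNP joins before the catalytic step. These particles (snRNPs) are built of small nuclear RNA and proteins, most of them on a ring of Sm proteins, while SR proteins and hnRNPs bind the transcript itself and steer which sites are used.

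Most splicing genes read lower in Il34LacZ/LacZ, at sizes close to those of other well-expressed genes. Intensities are given in pairs, Il34+/LacZ first and Il34LacZ/LacZ after it. Each difference is taken on log2(intensity + 16), as Il34LacZ/LacZ minus Il34+/LacZ. The difference was negative for 59 of 67 members, with a median of -0.68, against 7230 of 12843 and a median of -0.16 over all genes used. At least 1.5-fold lower were 36 members, or 53.7%, against 29.9% of all genes used. At least 1.5-fold higher were 2 members, Sf3b5 and Hnrnpa0, where 16% of all genes used were, a share that fell with level as described below. At 2-fold, 18 members were lower against a background of 13.2%, and none was higher against 2.57%. In RNA of a sorted population, fewer cells with a transcript and less transcript per cell cannot be told apart.

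**Figure D1:**
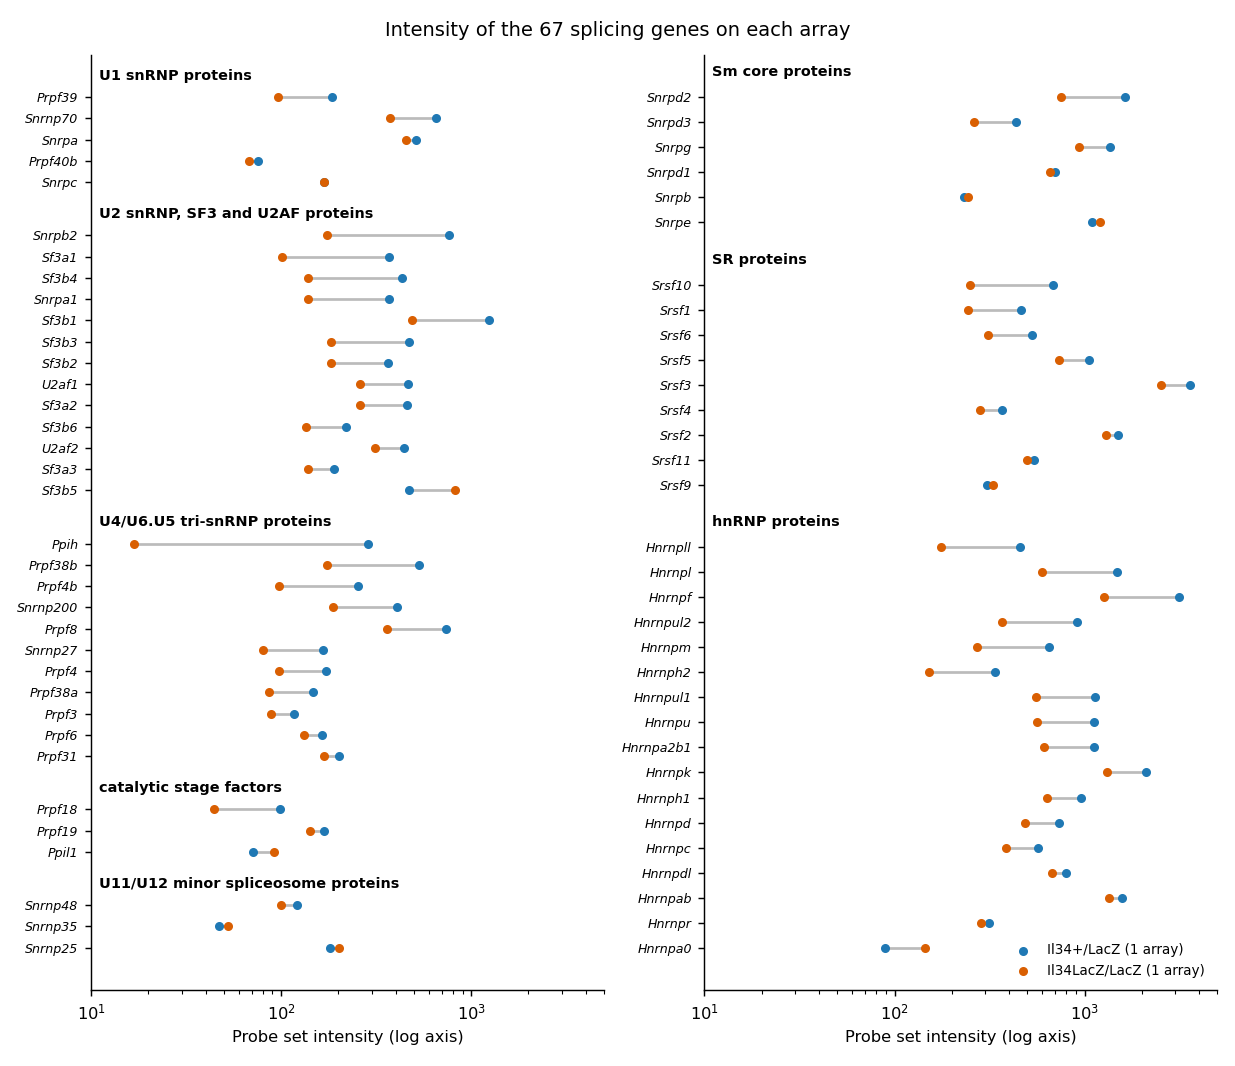
Intensity of the 67 splicing genes on the 2 arrays, on a log axis, grouped by role. Each point is 1 array (blue Il34+/LacZ, orange Il34LacZ/LacZ) and each line joins the readings of 1 gene. The orange point lies left of the blue one for 59 genes, and the widest gap is that of Ppih, from 286.3 to 16.9.

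The difference varied with mean level over all genes, and most splicing genes lay in the upper levels. When the genes used were split into 5 equal bands by mean level, 43 members lay in the brightest band, 13 in the next, and 6, 4 and 1 in the others. In the brightest band 58.1% of members were at least 1.5-fold lower, and so were 51.7% of the other genes of that band, with medians of -0.78 and -0.61. In the next band the shares were 46.2% and 42.4%, and the medians -0.41 and -0.47. At the share of the other genes of their own band, 30.2 members would have been at least 1.5-fold lower, against the 36 counted. At least 2-fold lower would have been 13.9, against 18. Of the other genes, 32.4% were at least 1.5-fold higher in the dimmest band and 3.44% in the brightest. At the shares of their bands, 4.52 members would have been at least 1.5-fold higher, against 2, and 1.13 at least 2-fold higher, against 0.

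The shift with brightness was also taken out by a loess curve, and values after that step are called trend-adjusted. The members then lay a little below other genes of their level. Their trend-adjusted median was -0.19, against 0.03 over all genes used, and 41 of 67 were negative, against 6167 of 12843. At least 1.5-fold lower were 16 members (23.9%, background 18.6%) and at least 1.5-fold higher 6 (background 13.9%). At least 2-fold lower after adjustment were Ppih, Snrpb2, Sf3a1 and Prpf18 (background 7.05%), and at least 2-fold higher was Sf3b5 (background 4.14%). Prpf18 and Sf3b5 were under 2-fold as deposited.

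**Figure D2:**
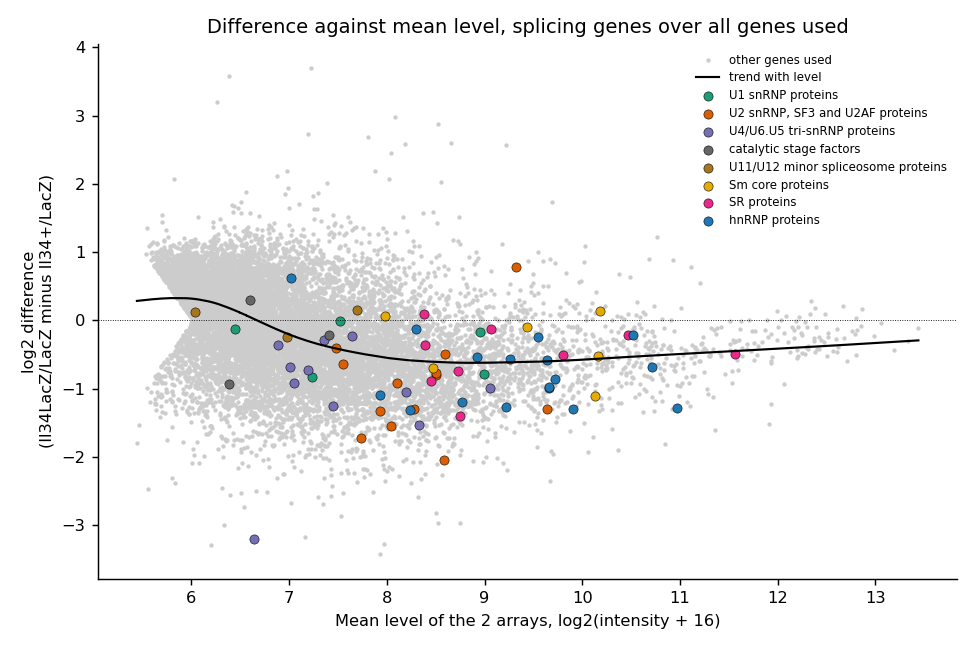
Difference of each gene (log2, Il34LacZ/LacZ minus Il34+/LacZ) against its mean level on the 2 arrays. Grey points are the other genes used, the black line is the loess trend, and coloured points are the 67 splicing genes by role. Most splicing genes lie where the trend is below 0, with Sf3b5 above it at 0.78. Ppih is drawn at its measured -3.20, which rests on a reading under the floor, and is -2.22 with that reading set to the floor.

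Markers of other cells and of dividing cells differed between the same arrays. All 11 Langerhans cell markers reached the floor on both arrays (632.9 to 7581.6 in Il34+/LacZ and 707.7 to 7153.8 in Il34LacZ/LacZ). Of them 10 read lower, 3 by at least 1.5-fold (Cd207, Csf1r and Cd24a), none was 1.5-fold higher, and they summed to 47370 and 39002. All 11 lay in the brightest level band, where 51.7% of the genes other than members were at least 1.5-fold lower. Their trend-adjusted median was 0.14, and after that step none was 1.5-fold lower and 1 was higher. Of 10 keratinocyte markers 9 were at least 1.5-fold lower and none higher, with summed intensities of 4248 and 771. Cell cycle genes, of which 13 of 19 were lower and none higher, summed to 6155 and 3277. After adjustment 8 keratinocyte markers and 7 cell cycle genes were lower, and none of either was higher. Of 8 macrophage markers 1 was lower and 3 higher (2880 and 4391), and of 8 neutrophil markers 5 reached the floor, with 4 higher and none lower (261 and 1450). Most of the second sum was S100a8 (71.9 and 552.1) and S100a9 (103.2 and 698.6), the other 3 were under the floor in Il34+/LacZ, and Ly6g, Ltf and Cxcr2 were under it on both arrays. The 4 were counted as measured, and with readings under the floor set to it Ngp was only at least 1.07-fold higher and Camp at least 1.52-fold. Of 7 T cell markers 5 had a probe set with 1 gene symbol, and all 5 reached the floor. Among them 1 was lower and none higher (4001 and 3985). After adjustment 6 macrophage, 4 neutrophil and 2 T cell markers were higher, and only 1 T cell marker was lower. Over all genes used, 29.9% were lower and 16% higher as deposited, and 18.6% and 13.9% after adjustment. Cd3e, a T cell receptor subunit, stood well above the floor at 1245.4 and 1250.3. No marker with a reading was at 0, and the part of these cells in the splicing gene values was not tested. Over all probe sets the median intensities were 45.2 (Il34+/LacZ) and 51.9 (Il34LacZ/LacZ), with upper quartiles of 142.7 and 116.4.

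U2 particle and branch point genes read low as a group, with 1 exception. Of 13 genes of the U2 snRNP, its SF3A and SF3B complexes and U2AF, 10 were at least 1.5-fold lower and 1 was higher. The median was -0.92, and the trend-adjusted median -0.36, with 6 genes lower and 1 higher after that step. At the share of other genes in their level bands, 6.35 would have been lower. Snrpb2, the U2-specific RNA-binding protein, had intensities of 766.4 (Il34+/LacZ) and 173.2 (Il34LacZ/LacZ), 4.14-fold lower. Its partner on the U2 RNA, Snrpa1, named here for that role with its value known, read 370.8 and 138.6. The SF3A subunit Sf3a1 read 371.2 and 101.0, 3.31-fold lower, whereas Sf3a3 of the same complex read 188.9 and 138.7, a difference of -0.41 that is inside the probe set SD.

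Within SF3B, the complex that holds the branch point adenosine, 5 of the 6 subunits among the members read lower and 1 read higher. Phf5a, a subunit that the rule does not take in, named with its value known, read 300.5 and 228.3. Sf3b4 read 433.0 and 137.9, 2.92-fold lower. Sf3b1, the subunit mutated in some human blood cancers, and Sf3b3 were named for their role with values known. Sf3b1 read 1232.8 and 490.1, and Sf3b3 read 470.6 and 182.5, so both were close to 2.5-fold lower. Sf3b2 and Sf3b6 were 1.90-fold and 1.55-fold lower. Sf3b5 went the other way, from 471.8 to 822.3, 1.72-fold higher, with a trend-adjusted difference of 1.39.

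U2AF recognises the polypyrimidine tract and the AG at the end of an intron. Its small subunit U2af1 read 463.8 and 260.3, and a second probe set read 455.3 and 186.3, so both gave a lower value in Il34LacZ/LacZ (differences of -0.80 and -1.22). The large subunit U2af2 read 443.4 and 312.0, a difference of -0.49 (trend-adjusted 0.13). On the probe set used, neither subunit's trend-adjusted difference exceeded the probe set SD.

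All 11 tri-snRNP members read lower as deposited, and 8 of 11 were at least 1.5-fold lower, where 4.14 would have been at the share of their level bands. The median was -0.91, the trend-adjusted median -0.47, and after that step 4 were at least 1.5-fold lower, none was 1.5-fold higher and 2 were above 0. Txnl4a, a U5 protein that the rule does not take in, named after its value was seen, read 136.3 and 184.0. Eftud2, another U5 protein outside the rule, read 358.8 and 145.4, 2.32-fold lower. Snu13 and Usp39, also outside it, were 1.60-fold and 1.51-fold lower, and these genes too were named with values known. Ppih, the cyclophilin bound to the U4/U6 particle, had the lowest difference of all members. Its intensity was 286.3 in Il34+/LacZ but 16.9 in Il34LacZ/LacZ, which is under the floor, so it was at least 4.67-fold lower. The other 2 Ppih probe sets differed less. The second read 125.9 and 33.9, again with the Il34LacZ/LacZ reading under the floor, and the third was under the floor on both arrays at 33.3 and 20.7.

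Prpf38b, a factor that joins with the tri-snRNP, read 533.9 and 173.3, 2.91-fold lower, and the kinase Prpf4b read 254.3 and 97.1, 2.39-fold lower. Among the members, 2 large U5 proteins at the catalytic core were named for their role with values known. Prpf8, the scaffold of the active site, read 735.3 and 360.5, and Snrnp200, the helicase that unwinds U4 from U6, read 406.3 and 188.1. Their trend-adjusted differences of -0.38 and -0.47 were smaller than the probe set SD. Prpf31 and Prpf6 differed least. Prpf31, a U4/U6 protein mutated in a human retinal degeneration, read 200.4 and 168.2, and Prpf6, which bridges U5 and U4/U6, read 164.7 and 132.0. Differences of the other 4 tri-snRNP genes ran from -0.91 (Snrnp27) to -0.36 (Prpf3).

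U1 particle genes, which start the assembly, had a median nearer 0. Of 5 measured, 2 were at least 1.5-fold lower and none was higher, and the median was -0.17 before and after adjustment. At the share of their level bands, 2.04 would have been lower. Snrnp70, the U1-70K protein that SR proteins contact, read 654.9 and 372.2, and Prpf39 read 185.1 and 96.7. Snrpa, which binds a stem-loop of U1 RNA, read 510.1 and 451.8. Prpf40b read 75.5 and 67.5. Snrpc, a U1 protein that helps U1 hold the intron start, read 167.4 and 167.1. Its other 2 probe sets disagreed, at 180.4 and 101.9 for the second and 129.1 and 132.6 for the third.

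Sm ring genes had a trend-adjusted median above 0. Of 6 measured, 2 were at least 1.5-fold lower as deposited and none was higher, where 3.01 would have been lower at the share of their level bands. The median was -0.31. After adjustment the median was 0.28, and none was lower and 2 were higher. Snrpe read 1088.6 and 1202.3, and Snrpb, which encodes the SmB proteins, read 231.6 and 242.3, so both were nearly level between arrays and stood 0.70 and 0.61 above the trend. Snrpg read 1356.3 and 935.5 and Snrpd3 read 436.1 and 261.6. Snrpd2 read 1632.3 and 746.8, 2.16-fold lower. Its 5 probe sets did not share a direction, with 3 between -1.27 and -1.11, 1 at 0.37, and 1 under the floor at 0.39.

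The minor spliceosome, which removes a rare class of introns, and the catalytic stage factors had 3 measured genes each. Snrnp25 read 180.3 and 202.4, Snrnp48 read 121.3 and 99.5, and Snrnp35, at the floor, read 47.0 and 52.5. None of these 3 was 1.5-fold apart as deposited. Prpf18, a factor of the second step of splicing, read 99.0 and 44.6, at least 1.78-fold lower. Prpf19, the ubiquitin ligase that acts in spliceosome activation, read 167.6 and 141.7, and the cyclophilin Ppil1 read 71.5 and 91.7. Prpf18 was thus the 1 gene of the 6 that was 1.5-fold apart as deposited. At the share of their level bands, 0.82 minor spliceosome and 0.73 catalytic stage genes would have been lower. After adjustment Prpf18 stood at -1.11, and Snrnp25 was past 1.5-fold higher at 0.63. The medians were 0.12 (minor spliceosome) and -0.22 (catalytic stage) as deposited, and -0.06 and 0.17 after adjustment.

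**Figure D3:**
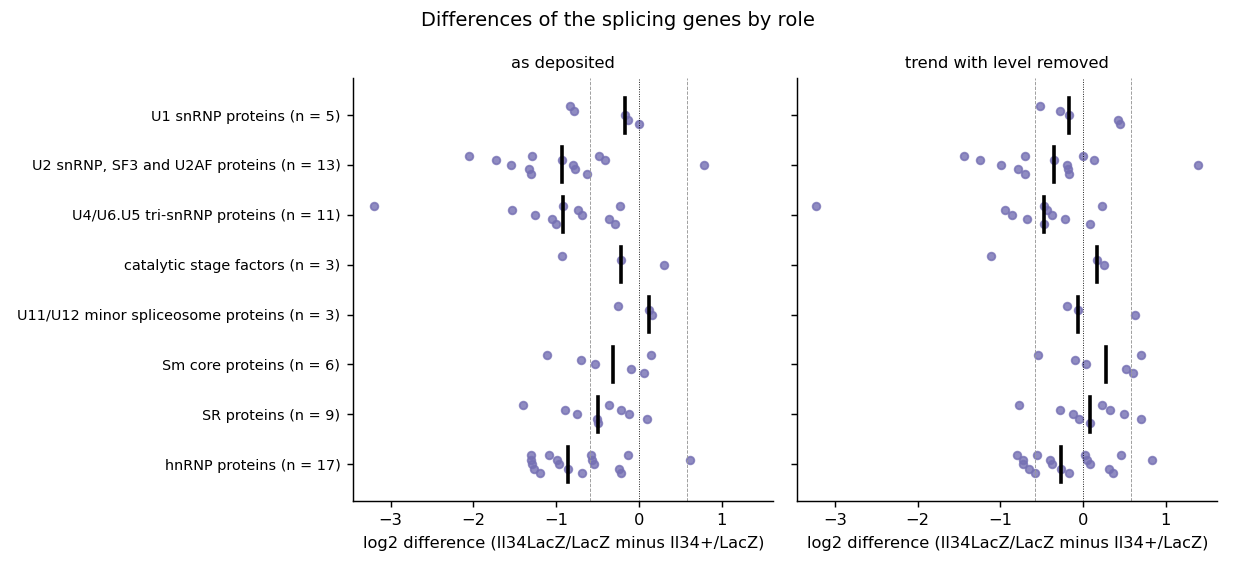
Differences of the splicing genes by role (log2, Il34LacZ/LacZ minus Il34+/LacZ), as deposited on the left and with the trend with level removed on the right. Each point is a gene, the black bar is the median of its group, and dashed lines mark 1.5-fold. U2 and tri-snRNP medians are -0.92 and -0.91 on the left and -0.36 and -0.47 on the right, while the Sm median moves from -0.31 to 0.28.

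SR proteins bind exons through an RNA recognition motif and recruit the machinery through a tail rich in arginine and serine. Of 9 measured, 3 were at least 1.5-fold lower and none was higher, where 4.66 would have been lower at the share of their level bands. The median was -0.50 as deposited and 0.08 after adjustment, which left 1 lower and 1 higher. Srsf10, which acts as a repressor of splicing when dephosphorylated, read 680.5 and 248.0, 2.64-fold lower. Its second probe set, at 117.5 and 83.9, differed by -0.42. Srsf1, the founding member of the family, read 462.1 and 242.2, and Srsf6 read 531.4 and 311.0.

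The remaining SR genes were closer between the arrays. Srsf3, the smallest of the canonical SR proteins, read 3582.6 and 2530.0 on the probe set used, a difference of -0.50. A second probe set differed by -0.61, but the third, at 51.5 and 134.0, by 1.15, so its probe sets did not share a direction. Srsf11 read 544.9 and 498.3 and Srsf9 read 306.8 and 329.8, the 1 SR gene with a higher reading in Il34LacZ/LacZ. Srsf5, Srsf4 and Srsf2 differed by -0.51, -0.37 and -0.21.

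hnRNPs coat nascent transcripts, often silence nearby splice sites and also act in stability and transport of RNA. Of 17 measured, 10 were at least 1.5-fold lower and 1 was higher, where 8.48 would have been lower at the share of their level bands. The median was -0.86, and the trend-adjusted one -0.26, with 4 lower and 1 higher after adjustment. Hnrnpl read 1488.1 and 593.4 and its relative Hnrnpll, a regulator of the exons of CD45 in lymphocytes, read 458.9 and 176.0, so both were 2.47-fold lower. The trend-adjusted difference was -0.72 for both. Hnrnpf, which binds runs of guanines, read 3121.4 and 1266.1, 2.45-fold lower, while its other 2 probe sets differed by -0.69 and -0.67.

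Hnrnpk, which binds runs of cytosines, read 2108.8 and 1305.8, and its 3 probe sets lay between -0.68 and -0.46. Hnrnpr read 314.0 and 284.9. Hnrnpa0 was the 1 hnRNP gene with a higher reading, at 88.8 and 144.5, 1.53-fold higher. The other 11 ran from -1.27 (Hnrnpul2) to -0.22 (Hnrnpab). Hnrnpa2b1, Hnrnpu and Hnrnpm were among them, at -0.86, -0.97 and -1.20.

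**Figure D4:**
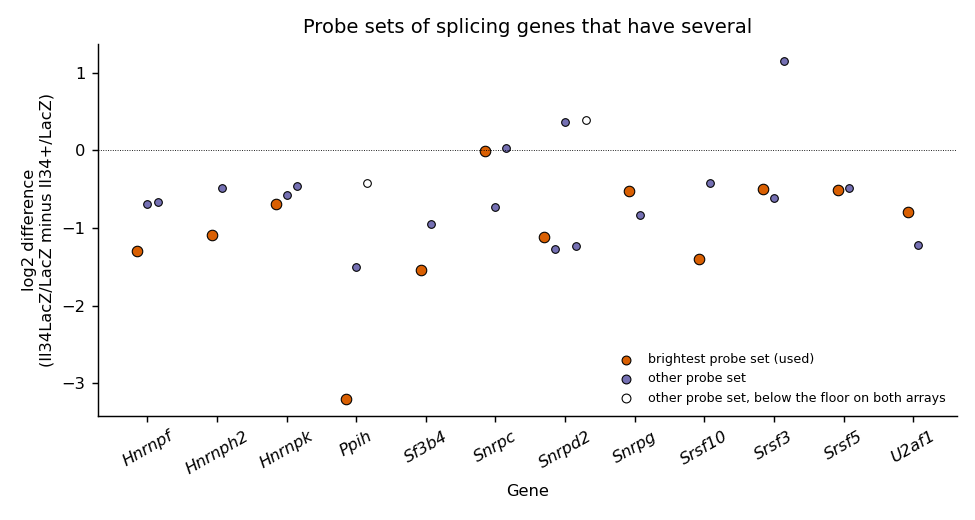
Differences (log2, Il34LacZ/LacZ minus Il34+/LacZ) of every probe set of the 12 splicing genes that have several. Orange points are the brightest probe set, which was used, purple points the others, and open points probe sets under the floor on both arrays. Probe sets of Srsf3 run from -0.61 to 1.15. Those of Ppih run from -3.20 to -0.42 as measured, each with its Il34LacZ/LacZ reading under the floor.

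Promoters of splicing genes often hold a match to the core of the ETS motif, with shares of 34.4% among members at least 1.5-fold lower and 39.3% among the others. One window per gene, the first listed, was taken from RefSeq on GRCm38.p6 (300 bases around the annotated start), and 60 of 68 members matched. CCGGAAG was searched on both strands and occurred in 36.7% of the 60 members' windows, in 9.12% of all 27025 windows, and in 828 of 4149 windows of other genes in the upper 2 level bands. Among members at least 1.5-fold lower 11 of 32 windows held it, and among the other members 11 of 28. TTTCCCGC, an E2F core, occurred in 4 of 60 windows, all of members at least 1.5-fold lower, a group that holds 32 of the 60. It occurred in 1.11% of all windows and in 2.15% of those of other genes in the upper 2 level bands. TATAAA occurred in 7 of 60 windows (11.7%), in 2 of 32 of lower members and in 5 of 28 of the other members. It occurred in 14.2% of all windows and in 7.35% of those of other genes in the upper 2 level bands. A motif of the factor NRF1 was also searched and occurred in 1 of 60 windows (1.67%), that of a member at least 1.5-fold lower. It occurred in 0.977% of all windows and in 2.05% of those of other genes in the upper 2 level bands. The split of these motifs between lower and other members was not tested. The motifs searched do not contain one another. A match is a description of the sequence and not a binding site. The windows of the 2 members with the lowest and the 2 with the highest difference among those matched are shown 5′ to 3′, with matches to CCGGAAG or its reverse complement in capitals. Ppih (chr4:119320474-119320773, minus strand) holds 3 matches, Snrpb2 (chr2:143062819-143063118, plus strand) 2, Ppil1 (chr17:29263922-29264221, minus strand) 2 and Hnrnpa0 (chr13:58128507-58128806, minus strand) 0.
Ppih: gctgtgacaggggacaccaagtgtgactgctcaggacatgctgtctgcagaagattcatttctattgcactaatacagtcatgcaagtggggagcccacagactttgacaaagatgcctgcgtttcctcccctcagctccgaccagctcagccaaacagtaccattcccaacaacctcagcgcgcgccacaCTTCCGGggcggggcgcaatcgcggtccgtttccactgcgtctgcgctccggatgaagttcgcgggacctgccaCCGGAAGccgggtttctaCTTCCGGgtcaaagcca
Snrpb2: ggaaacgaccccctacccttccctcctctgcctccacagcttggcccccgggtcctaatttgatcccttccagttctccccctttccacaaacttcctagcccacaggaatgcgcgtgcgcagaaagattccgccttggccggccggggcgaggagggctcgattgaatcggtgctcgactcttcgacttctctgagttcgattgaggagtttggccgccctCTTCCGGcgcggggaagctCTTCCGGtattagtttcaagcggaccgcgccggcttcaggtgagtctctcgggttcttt
Ppil1: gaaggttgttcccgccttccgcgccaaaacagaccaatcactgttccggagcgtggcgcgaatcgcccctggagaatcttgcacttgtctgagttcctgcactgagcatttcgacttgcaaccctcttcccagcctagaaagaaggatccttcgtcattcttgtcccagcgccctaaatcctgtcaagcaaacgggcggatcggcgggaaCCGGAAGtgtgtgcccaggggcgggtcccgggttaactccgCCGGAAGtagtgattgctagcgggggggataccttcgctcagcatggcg
Hnrnpa0: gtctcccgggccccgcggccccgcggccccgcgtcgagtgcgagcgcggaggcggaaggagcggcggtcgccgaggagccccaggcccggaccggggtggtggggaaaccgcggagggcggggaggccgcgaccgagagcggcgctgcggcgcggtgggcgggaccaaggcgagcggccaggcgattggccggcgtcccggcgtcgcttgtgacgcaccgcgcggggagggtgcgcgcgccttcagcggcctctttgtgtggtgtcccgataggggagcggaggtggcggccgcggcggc
Matches thus stood in the lowest members and in Ppil1, which read 71.5 and 91.7.

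Gene length was set beside the differences. Across the 67 members, Spearman's rho between genomic span and difference was -0.30, and -0.35 for the trend-adjusted difference, and across 12808 genes used with a span it was -0.17 and -0.18. These are correlations across genes of the same 2 arrays, which are not independent replicates. The members' median span was 14.2 kb, against 19.8 kb over the genes used. Sf3b5, with the highest difference, spans 734 bases, and Hnrnpa0 2678 bases. The 2 members with the lowest difference, Ppih and Snrpb2, span 20514 and 8984 bases, on either side of the members' median. Between span and mean level rho was -0.22 across the members and -0.02 across the genes used.

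Other genes of the pathway, taken from lists of non-members, also had a median below that of all genes used. Of 120 listed, 113 had a probe set with 1 gene symbol and 110 reached the floor. Of these 110, 64 were at least 1.5-fold lower (background 29.9%) and 4 higher (background 16%), with a median of -0.70. They were brighter than all genes used, with median levels of 7.99 and 6.92 on the log2 scale, and brighter genes were lower more often. Counts at the share of their level bands are given by list below. After adjustment the median was -0.29, with 30 lower (background 18.6%) and 11 higher (background 13.9%). The lists differed in size of the shift, though no difference between lists was tested.

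SR-related proteins and splicing regulators had the lowest median of these lists. Of 29 measured, 24 were at least 1.5-fold lower and none was higher, where 14.4 would have been at the share of their level bands. The median was -1.01, and -0.45 after adjustment, which left 9 lower and none higher. Rbm25, an RNA-binding regulator of alternative splicing, read 532.4 and 107.4, 4.44-fold lower, and Tra2a, the gene of the list that differed least, read 364.2 and 276.3. Both changed with the probe set read and with the setting. Rbm25 differed by -2.15 as deposited, by -1.38 with its lowest-mean probe set and by -0.50 under quantile normalization. Tra2a differed by -0.38 as deposited, by -0.42 as the mean over its probe sets and by -1.89 with its lowest-mean probe set. Under 75th percentile scaling it differed by 1.28 and under quantile normalization by 1.45, in the other direction. The same settings moved Clk4, at -1.79 as deposited, to -1.51 and -1.32. The brightest probe set was picked anew after each scaling. Because 75th percentile scaling multiplies all readings of an array by 1 number, it moves well-expressed genes by like amounts, as with Clk4. The value of 1.28 for Tra2a therefore came from another of its probe sets, and its probe sets did not share a direction. Which probe set of Rbm25 was read under quantile normalization was not looked up. SR kinases, which phosphorylate the tails of SR proteins, had a median of -0.96 over 5 genes, with 4 lower (2.27 at the share of their level bands) and none higher, and -0.43 after adjustment. Clk4 read 745.5 and 203.9, 3.46-fold lower, and Srpk2 read 101.8 and 77.4.

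Prpf19 (NTC) complex and related genes, which activate the catalytic core, had a median of -0.86 over 16 genes, with 9 lower (6.32 at the share of their level bands) and none higher, and -0.31 after adjustment. Rbm22 read 406.9 and 137.0, and Isy1 read 198.8 and 292.4. Spliceosomal helicases had a median of -0.68 over 12 genes, with 6 lower (5.20 at the share of their level bands) and none higher, and -0.18 after adjustment. Dhx15, which takes spent spliceosomes apart, read 1095.7 and 341.8, 3.11-fold lower, while Dhx38, which remodels the complex before the second step, read 159.7 and 168.0.

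Genes that assemble snRNPs included some of the lower readings. Of 12 measured SMN complex and assembly genes, 6 were at least 1.5-fold lower and 1 was higher, where 3.15 would have been lower at the share of their level bands, and the median was -0.38 (-0.34 after adjustment). Smn1, which loads Sm rings on small nuclear RNA, read 223.5 and 66.1, 2.92-fold lower. Gemin6, of the same complex, read 29.3, under the floor, and 83.7, at least 1.54-fold higher. That value depended on the probe set, with a difference of 1.14 as measured and 0.49 as the mean over its probe sets. The 20 other snRNP and early factors had a median of -0.49, with 9 lower (7.93 at the share of their level bands) and none higher. After adjustment the median was -0.10, with 5 lower and 2 higher. They ran from Pdcd7 of the U11/U12 particle (132.3 and 39.0, at least 2.29-fold lower) to Txnl4b (141.1 and 205.2).

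LSm genes, most of whose products form rings like the Sm ring on U6 RNA or on decaying messenger RNA, went in both directions. Among the 10 measured, 3 read at least 1.5-fold lower and another 3 at least 1.5-fold higher, and the median was -0.04. At the share of their level bands, 4.398 would have been lower. After adjustment the median was 0.55, with 1 lower and 5 higher. Lsm2 read 244.8 and 50.1, 3.94-fold lower, and Lsm3 read 152.8 and 370.7, 2.29-fold higher. Exon junction complex genes had a median of -0.55 over 6 genes, with 3 lower (2.55 at the share of their level bands) and none higher, and 0.01 after adjustment. Rnps1 read 607.8 and 168.3, and Rbm8a, a subunit of the complex core, 631.7 and 576.1.

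**Figure D5:**
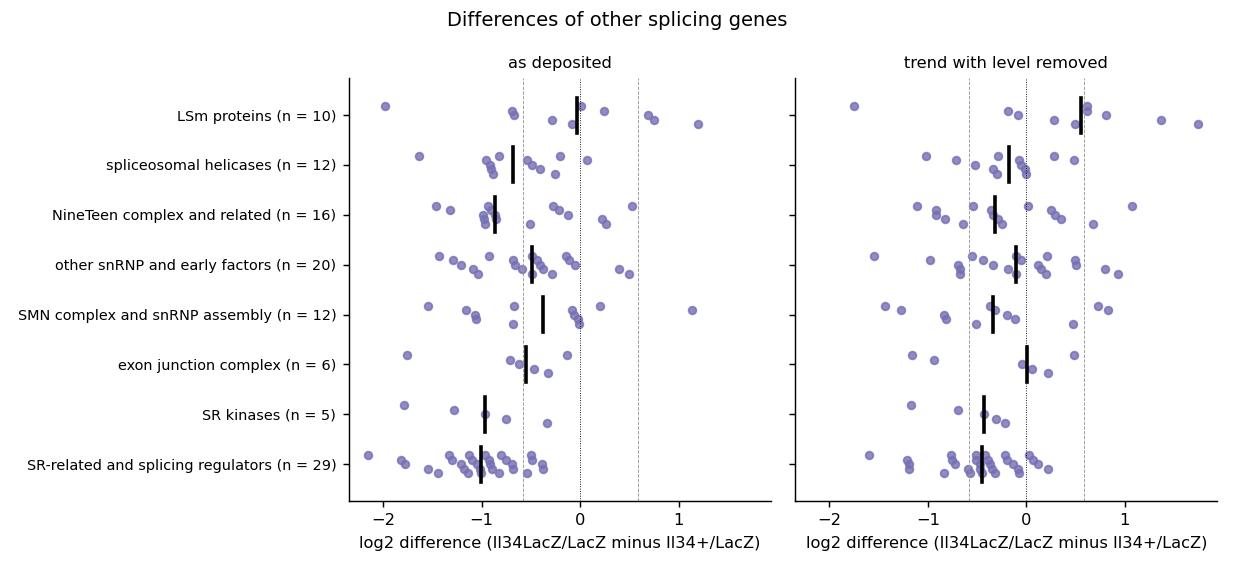
Differences of 110 splicing genes that are not members, by list (log2, Il34LacZ/LacZ minus Il34+/LacZ), as deposited on the left and with the trend with level removed on the right. Points are genes, black bars medians and dashed lines 1.5-fold. SR-related proteins and regulators have the lowest median on the left at -1.01, and LSm genes the highest at -0.04.

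Other large cellular machines were read on the same arrays. Proteasome subunits had 16 of 38 genes at least 1.5-fold lower and 2 higher, and a median of -0.52 (0.00 after adjustment). Mitochondrial ribosomal proteins had 21 of 75 lower and 3 higher, and a median of -0.28 (0.07 after adjustment). Over all genes used 29.9% were at least 1.5-fold lower and 16% higher. In the upper 2 level bands 51.7% (brightest) and 42.4% (next) of the genes other than members were at least 1.5-fold lower. Counts at the share of their level bands were not taken for these machines. The members' medians were -0.68 and -0.19. With 1 array a genotype these differences could not be tested.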

How the data were processed

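Langerhans cell RNA of 2 mouse genotypes was measured on 1 array each. Per the labels' protocols, cells were sorted straight into lysis buffer and 2 ng of extracted RNA entered labelling with biotin. Each probe set has 1 linear intensity on each array in the table the authors deposited. How background, summarising and scaling were done is not given in the sources used here, and no detection calls were analysed. Arrays were 1-colour (biotin label), and their number limits the precision.

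Of 34760 probe sets, 21640 had 1 gene symbol, 1321 several and 11799 none. Only the first were named, and all 68 members' symbols matched RefSeq (GRCm38.p6). A gene was read by its brightest probe set (88 probe sets for 68 members) and used if its higher reading reached the floor, which was set at the median intensity of both arrays together (48.7). Values were taken as log2(intensity + 16), so folds of dim genes are understated. Where 1 array was under the floor, the fold was computed against it and given as "at least". Folds of 1.5 and 2 were counted as measured. The trend with level was a loess curve (fraction 0.3) on probe sets with 1 symbol. With 1 array a genotype no test between genotypes was possible.

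Named genes were Ppih, Ppil1, U2af1 and U2af2, the 3 lowest and 2 highest members of each role group (all in groups of 5 or fewer), the 3 members with the highest mean level, and the lowest and highest gene of each pathway list. The members and lists were chosen with earlier results of these data known. The code was tested on simulated data. Python 3.11.15, numpy 2.4.6, pandas 2.3.3, statsmodels 0.14.6 and matplotlib 3.10.9 were used.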

Additional observations from a re-analysis of the deposited data

How the results depend on the processing

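Every setting run kept the members' median difference negative. It ran from -0.83, with each array centred on its median, to -0.18, with a running median over genes of like level removed, and stayed 0.19 or more below the median of all genes in each. The counts changed most where the trend with level or the quantiles were removed. With the loess trend removed (fraction 0.3), 16 members were at least 1.5-fold lower and 6 higher, and 4 lower and 1 higher at 2-fold. With a fraction of 0.6 these were 18, 4, 5 and 1, with the running median 16, 6, 5 and 1, and with quantile normalization 21, 4, 5 and 1. With 75th percentile scaling 11 members were at least 2-fold lower and 1 was higher. At least 1.5-fold higher was 1 member with each array centred on its median and 1 with a pseudocount of 64. With the lowest-mean probe set 1 was at least 2-fold higher, Srsf3. Among all genes used, 75th percentile scaling gave 18.4% lower and 28.5% higher at 1.5-fold, in place of 29.9% and 16%. The role medians of U2, tri-snRNP and hnRNP genes stayed negative in every setting, while those of the other 5 groups changed sign in at least 1. Of the values of the named member and pathway genes under the alternatives, 689 moved by less than the probe set SD and 29 by more. Among the 29 were Ppih (-1.71 as the mean over its probe sets and -2.22 with its value under the floor set to the floor) and Srsf10 (-0.42 with its lowest-mean probe set). Tra2a was also among them, at 1.28 with 75th percentile scaling, where another of its probe sets was read. Srsf3 was 1.15 with its lowest-mean probe set. Setting values under the floor to the floor, an alternative chosen after seeing the data, changed no member count. No paired analysis was possible because each genotype has 1 array. Depth cannot be given for an array.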

Other observations

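Rnu12, the U12 small nuclear RNA that pairs with the branch point of minor introns, had intensities of 454.7 (Il34+/LacZ) and 115.9 (Il34LacZ/LacZ), 3.57-fold lower, and a trend-adjusted difference of -1.29. As deposited, Snrnp25, Snrnp35 and Snrnp48 of the U11/U12 particle were not 1.5-fold apart, whereas Pdcd7, another protein of that particle, was at least 2.29-fold lower. Their trend-adjusted differences were 0.63, -0.19 and -0.06, and that of Pdcd7 was -1.54. Probe sets of Rnu5g (38.9 and 32.3), Rnu6 (4.42 and 4.80) and Rnu7, an RNA of histone message processing (20.2 and 29.3), were under the floor on both arrays. These genes were looked at after the values of the members were known.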
